A study of Mus musculus with 6 samples.

Results

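Pm20d1 and 7 further enzymes that make or break the bond between an acyl group and an amino acid, or a closely related bond, were followed in mouse kidney. They were chosen by gene symbol and are Pm20d1, Pm20d2, Acy1, Acy3, Aspa, Cndp2, Faah and Glyat, 8 of the 51804 gene symbols in the deposited table and 40 of its 128603 transcripts. Pm20d1 was proposed because it stood lower in the libraries labelled knockout, so its difference, and that of the other members in the same contrast, is described here without a test. The list holds more than N-acyl amino acid hydrolases: Glyat is an acyltransferase, Pm20d2 and Cndp2 are dipeptidases, and Faah is best known for cleaving fatty acid amides.

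The libraries were 3 labelled knockout (genotype Ccnb1f/f;Cdh16-Cre, floxed Ccnb1 alleles with a Cre transgene) and 3 controls (Ccnb1f/f), all labelled as kidney tissue, although the extraction text also speaks of cultured cells. The Cdh16 promoter is active in tubular epithelium and not in vessels, stroma or immune cells, which kidney tissue also holds. Both groups carried the floxed alleles, and the control genotype names no Cre. Nothing in the sources used here gives age, strain background or the floxed exons, and the labels do not say that replicates are separate animals, so errors and p-values reflect variation among these libraries alone, and part of it may be technical. The study asked how loss of cyclin B1 in tubular cells bears on cell cycle arrest, kidney ageing and fibrosis.

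An N-acyl amino acid is an amino acid whose amino group carries an acyl chain. PM20D1 is a secreted enzyme that both condenses long-chain fatty acids with amino acids and cleaves the products, some of which uncouple respiration in mitochondria. In mice, FAAH, a membrane enzyme inside cells, cleaves the same lipids. Proximal tubule cells reabsorb and process amino acids, and they use acetylation, deacetylation and conjugation with glycine to clear metabolites and xenobiotics into urine.

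Pm20d1 (ENSMUSG00000042251) lies on chromosome 1, 131797381 to 131821473, plus strand, GRCm38. Its main transcripts encode the same protein and differ mainly after the stop codon. In GENCODE M21, also on GRCm38, ENSMUST00000112393 has 13 exons and ENSMUST00000048660 has 14, and all 13 coding segments are identical. The coding sequence runs for 1512 bases with the stop codon, or 503 amino acids. The last 60 coding bases are shown because the transcripts separate 1 base beyond them. In ENSMUST00000112393 the exon reads on through the 3′ untranslated region to 131821461 and is 5475 bases long. In ENSMUST00000048660 it ends at 131816111, an intron of 4590 bases is removed, and a last exon of 772 bases follows. The transcripts are 6900 and 2305 bases long and are called long and short here. The first and last 60 coding bases follow, 5′ to 3′, from the GENCODE transcripts, with the start and stop codons in capitals.
Pm20d1 coding start, chr1:131797418-131797477, plus strand: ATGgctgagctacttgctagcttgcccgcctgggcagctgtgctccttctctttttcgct
Pm20d1 coding end, chr1:131816051-131816110, plus strand: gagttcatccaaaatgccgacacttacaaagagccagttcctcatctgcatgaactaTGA

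Acy3 and Aspa are paralogs of the aspartoacylase family. Their promoters are shown because the levels of the pair went apart in control 2, the library that was most often the lowest or the highest of the 6. RefSeq (GRCm38.p6) gave a promoter for 6 of the 8 members, all but Pm20d1 and Cndp2. The 250 bases before each RefSeq start are printed, with matches to TATAAA on either strand in capitals. The RefSeq start of Aspa is not that of the deposited gene, which reaches 73329596 on the minus strand. Its printed window thus lies inside the deposited gene. Acy3 held 1 match, 30 bases before its start. Aspa held 3 between 209 and 174 bases before its start, of which a pair overlap. The motif occurred in 12.4% of all 32851 RefSeq promoters of that length, and a match only says that these letters are present.
Acy3 promoter, chr19:3986320-3986569, plus strand: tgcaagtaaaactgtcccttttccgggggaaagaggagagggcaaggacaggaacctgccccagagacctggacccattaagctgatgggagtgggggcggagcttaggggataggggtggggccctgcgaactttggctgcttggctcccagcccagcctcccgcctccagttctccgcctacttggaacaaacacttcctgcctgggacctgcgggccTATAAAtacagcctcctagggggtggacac
Aspa promoter, chr11:73324638-73324887, minus strand: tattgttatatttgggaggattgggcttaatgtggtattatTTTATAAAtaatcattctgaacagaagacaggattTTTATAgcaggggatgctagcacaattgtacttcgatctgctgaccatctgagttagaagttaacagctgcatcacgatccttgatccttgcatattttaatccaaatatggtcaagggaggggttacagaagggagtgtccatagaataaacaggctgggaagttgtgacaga
The hormone response half-site AGAACA, searched on both strands, had no match in the promoters of Acy3, Aspa, Acy1, Glyat or Pm20d2. Faah held 2 matches, 111 and 97 bases before its start, and the motif occurred in 16.1% of promoters. The full palindromic androgen response element, the consensus HNF1 motif and the HNF4A motif CAAAGTCCA, also searched on both strands, had no match in the 6 promoters and occurred in 0.0304%, 0.00913% and 0.384% of all. No match says only that the letters are absent from this window.

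Each library held 16061435 to 21261226 estimated counts. Levels are in CPM, the estimated counts scaled to library size with TMM factors. A count of 0 leaves room for up to 3 counts, or 0.141 to 0.187 CPM depending on the library, by counting error alone. Ccnb1 had 18, 15 and 11 counts in knockout 1 to 3, against 11, 17 and 7 in control 1 to 3. The targeted gene was thus not lower, and it did not check the labels at this depth. Control 2 was the lowest of the 6 libraries for 22.8% of the 15017 genes tested, where the other libraries were lowest for 13.4% to 18.7%. Values of the members for which it was lowest are given with and without it. Kidney markers were abundant: 8 early proximal tubule markers together reached 11186 to 11620 CPM in the libraries labelled knockout, against 10840 to 12798 CPM in the controls.

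Pm20d1 stood at 44.1% of the control level in the libraries labelled knockout. Its estimated counts were 3340, 2232 and 2628 in knockout 1 to 3, against 5557, 6271 and 6472 in control 1 to 3. Scaled for depth, these were 194, 141 and 121 CPM in knockout 1 to 3, against 337, 318 and 378 CPM in control 1 to 3. The groups did not overlap, and the highest library labelled knockout lay well under the lowest control. The means were 152 ± 37.4 CPM in libraries labelled knockout and 344 ± 30.8 CPM in controls (SD, n = 3 each). On the log2 scale the fold change, knockout over control, was -1.18 (SE 0.18), and it ran from -1.39 to -1.04 when each library was left out in turn. In kidney tissue, fewer cells of a type and less RNA per cell cannot be told apart.

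**Figure D1:**
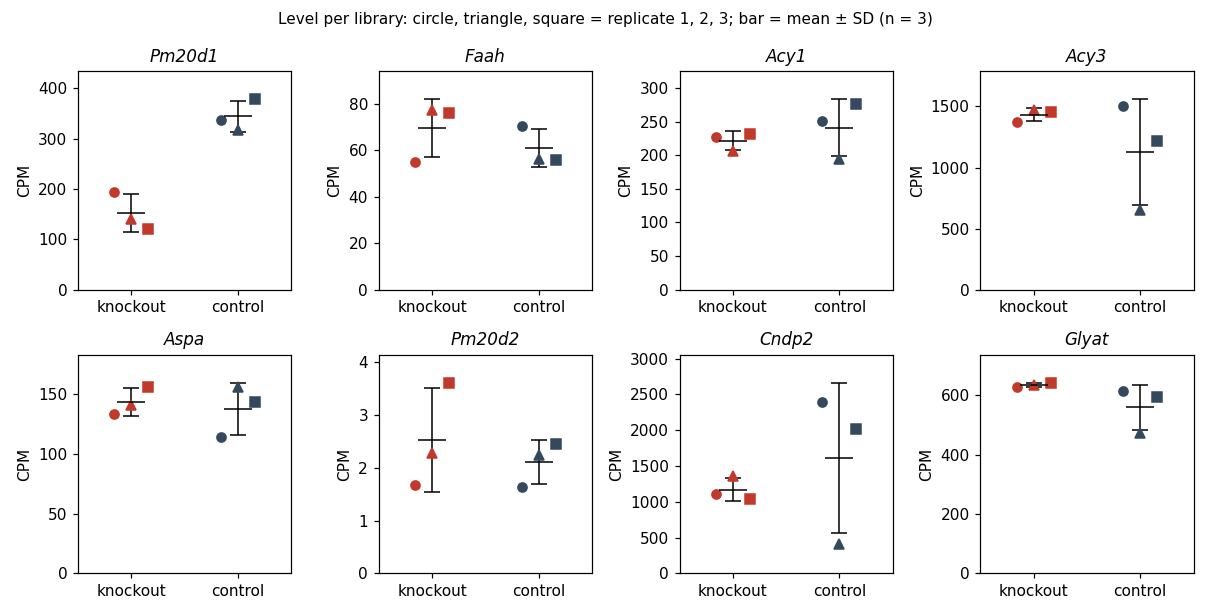
CPM of the 8 genes in each library (y axis, from 0, a scale of its own per gene), libraries labelled knockout on the left and controls on the right; points are libraries and bars the mean ± SD (n = 3). Pm20d1 separates the groups, while control 2 (triangle) is low for Cndp2 (416 CPM) and Acy3 (654 CPM).

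Both Pm20d1 transcripts were lower, the short one by more. The long transcript had 164, 110 and 99.6 CPM in knockout 1 to 3, against 260, 245 and 288 CPM in control 1 to 3. The short transcript had 29.1, 30.7 and 21.6 CPM in knockout 1 to 3, against 77.0, 72.7 and 89.7 CPM in control 1 to 3. Neither transcript overlapped between groups. The log2 ratio of group means, knockout over control, was -1.09 for the long and -1.56 for the short transcript. The remaining transcripts held little: ENSMUST00000152989 had at most 10.1 counts in a library, and ENSMUST00000132450 was listed at 0 in all.

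The short transcript took 15.1%, 21.8% and 17.8% of the Pm20d1 count in knockout 1 to 3, against 22.8%, 22.9% and 23.7% in control 1 to 3. Means were 18.2% ± 3.38 in libraries labelled knockout and 23.1% ± 0.51 in controls (SD, n = 3 each). The groups did not overlap, but knockout 2 lay within about 1 percentage point of control 1. Over all members, the share of its gene did not overlap between groups for 7 of 25 transcripts at a mean of 10 or more estimated counts, where 10.7% of all 29900 such transcripts showed that. The 7 were both Pm20d1 transcripts, 3 of Acy1 and 2 of Aspa, and shares within a gene sum to the whole, so they are not separate observations. Per length the transcripts were closer to each other. The short one had 12.6, 13.1 and 9.55 FPKM (fragments scaled by transcript length and library depth) in knockout 1 to 3, against 32.2, 33.5 and 37.7 FPKM in control 1 to 3. The long one had 23.8, 15.7 and 14.7 FPKM in knockout 1 to 3, against 36.3, 37.6 and 40.5 FPKM in control 1 to 3. The coding exons are common to both, so the division between them rests on the authors' estimate and mostly on reads in the 3′ part, and reads by exon were not analysed here.

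**Figure D2:**
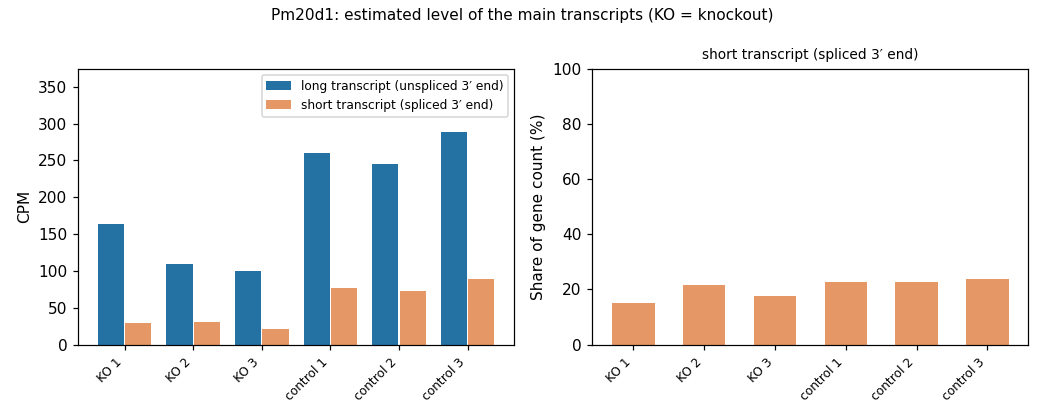
Left, estimated CPM of the long and short Pm20d1 transcripts (y axis) in each library (x axis, KO = labelled knockout); right, the share of the gene's count given to the short transcript (%). Both transcripts are lower in the libraries labelled knockout, and the short transcript's share is 15.1% to 21.8% there against 22.8% to 23.7% in controls.

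The nearest tested genes downstream of Pm20d1 on chromosome 1 had log2 fold changes near 0. Distances here are between the lower coordinates of the genes. Of 32 other genes within 500 kb, 10 were tested, with 5 above 0 and 5 below and a median log2 fold change of 0.002, against -0.005 over all genes. Slc41a1, a magnesium transporter gene 30.1 kb downstream, was at -0.06 (SE 0.14). Rab29, a small GTPase gene, was at 0.14 (SE 0.19), the chromatin protein gene Nucks1 at 0.06 (SE 0.11) and Slc45a3 at 0.10 (SE 0.19). Elk4, a transcription factor gene, was at -0.14 (SE 0.11) and the kinase gene Cdk18 at -0.08 (SE 0.17). In the edgeR quasi-likelihood test 0 of the 10 passed an adjusted p of 0.05, and DESeq2 called 0. In edgeR 2 of the 10 had an unadjusted p under 0.05, where 485 of all 15017 genes tested did.

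The groups did not overlap for 3 of these 10 neighbours, where 8.18% of all genes tested showed that. Mfsd4a, a transporter-like gene, had 68.6, 66.1 and 73.8 CPM in knockout 1 to 3, against 76.2, 94.9 and 85.5 CPM in control 1 to 3, a log2 fold change of -0.30 (SE 0.11). Rab7b, a small GTPase gene of late endosomes, was rare at 1.62 to 3.14 CPM in libraries labelled knockout and 0.425 to 1.47 CPM in controls, a log2 fold change of 1.36 (SE 0.47). Gm26892, without a named product, had 6.90 to 8.33 CPM in libraries labelled knockout and 0.175 to 4.98 CPM in controls (1.38, SE 0.71). It lies within Mfsd4a on the opposite strand, and as strandedness is not stated, reads of this pair may not be told apart. Ctse, which encodes the protease cathepsin E, overlapped between groups (-0.83, SE 0.49). Rab7b and Ctse were the only tested genes upstream of Pm20d1 in this window, and neither lay near 0.

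**Figure D3:**
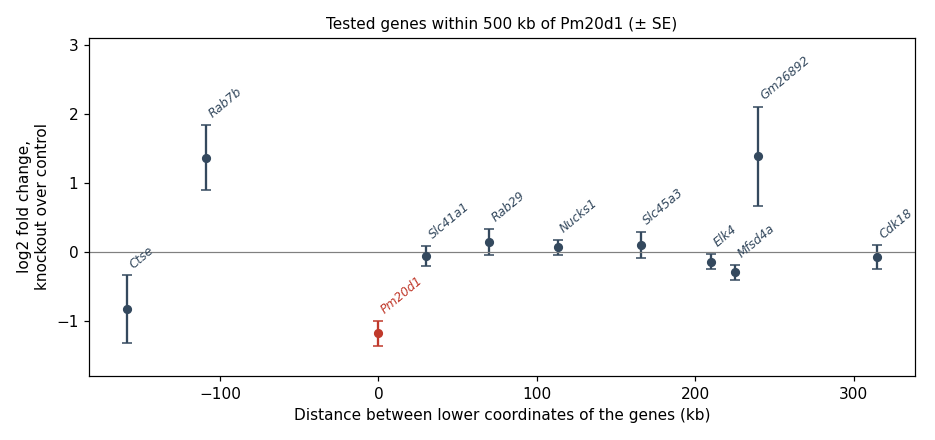
The log2 fold change, knockout over control ± SE (y axis) of Pm20d1 (red) and the 10 tested genes within 500 kb of it, by distance between the lower coordinates in kb (x axis). Pm20d1 is at -1.18 while Slc41a1, Rab29, Nucks1 and Slc45a3, the nearest on 1 side, lie between -0.06 and 0.14.

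Genes whose levels ran most like Pm20d1 over the 6 libraries were Zeb2, Vasp, Kctd10, Ggnbp2 and Dync1h1. Likeness was the Pearson correlation of log2(CPM + 1) among 10587 genes at a mean of 5 CPM or more. It was 0.995 for Zeb2, a transcription factor gene, and 0.976 to 0.983 for the others. The 6 points share the group difference by which Pm20d1 was chosen, and 16 genes reached 0.95, so the values describe these libraries. Zeb2 had 26.5, 24.5 and 23.8 CPM in knockout 1 to 3, against 31.9, 31.2 and 33.7 CPM in control 1 to 3, a log2 fold change of -0.37 (SE 0.10). The others lay between -0.19 and -0.12. No other member was among these genes.

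Faah, the second enzyme that cleaves N-acyl amino acids in mice, had overlapping groups and a slightly higher mean in the libraries labelled knockout. Faah (chromosome 4, 115967145 to 116017926, minus strand) had 55.2, 77.5 and 76.1 CPM in knockout 1 to 3, against 70.3, 56.5 and 56.0 CPM in control 1 to 3. The groups overlapped, with knockout 1 below every control and the other knockout libraries above. Its fold change was 0.19 on the log2 scale (SE 0.16), and 0.10 to 0.33 when each library was left out in turn. ENSMUST00000049095 held 75.5% ± 1.44 of its count in libraries labelled knockout and 73.7% ± 1.47 in controls (SD, n = 3 each), out of 8 transcripts.

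The remaining members of the M20 metallopeptidase family, to which Pm20d1 belongs, went different ways. Acy1 (chromosome 9, 106432981 to 106438319, minus strand) encodes the cytosolic aminoacylase that removes acetyl groups from most N-acetyl amino acids. It had 228, 206 and 231 CPM in knockout 1 to 3, against 251, 194 and 277 CPM in control 1 to 3, a log2 fold change of -0.12 (SE 0.14). The libraries labelled knockout lay inside the range of the controls, and the log2 fold change was -0.25 without control 2, the lowest library. Pm20d2 (chromosome 4, 33174230 to 33189737, minus strand), a dipeptidase that acts on peptides such as beta-alanyl-lysine, was the rarest member. It had 29, 36 and 78 counts in knockout 1 to 3, against 27, 44 and 42 in control 1 to 3. Its log2 fold change of 0.26 (SE 0.35) rested on knockout 3 and was -0.10 without it.

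Cndp2 had the widest spread of the 8 members among controls, with a coefficient of variation of 14.1% in libraries labelled knockout and 65.2% in controls. The gene (chromosome 18, 84667470 to 84685633, minus strand) encodes the cytosolic dipeptidase of the M20 family, which also joins lactate to amino acids. It had 1115, 1358 and 1043 CPM in knockout 1 to 3, against 2391, 416 and 2019 CPM in control 1 to 3. Control 2 was the lowest library and the other controls the highest, with all libraries labelled knockout between them. This gave a log2 fold change of -0.46 (SE 0.52) with all libraries and -0.91 without control 2. It was -0.05 without control 1, -0.26 without control 3 and between -0.58 and -0.38 without 1 of the libraries labelled knockout. The fit with the replicate number as a block gave -0.18, and the fits on FPKM -0.11.

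The division of Cndp2 between its transcripts also set control 2 apart. In GENCODE M21, ENSMUST00000025546 starts in an outer first exon, ENSMUST00000168419 starts 3643 bases further in, and all 11 coding segments are the same. Their lengths there are 2124 and 2152 bases, but the deposited FPKM imply 2050 and 2088. The transcript models behind the counts may therefore differ somewhat from these. The transcript from the outer exon had 615, 962 and 693 CPM in knockout 1 to 3, against 1386, 132 and 1392 CPM in control 1 to 3. The transcript from the inner exon had 500, 396 and 350 CPM in knockout 1 to 3, against 1005, 284 and 627 CPM in control 1 to 3. The outer share was 55.2%, 70.9% and 66.4% in knockout 1 to 3, against 58.0%, 31.6% and 68.9% in control 1 to 3. Control 2 was thus the 1 library in which the inner transcript took most of the count. Cndp1, the secreted carnosine dipeptidase gene 17.4 kb away, did not show this and had 91.0 CPM in control 2, against 61.1 to 104 CPM in the others.

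**Figure D4:**
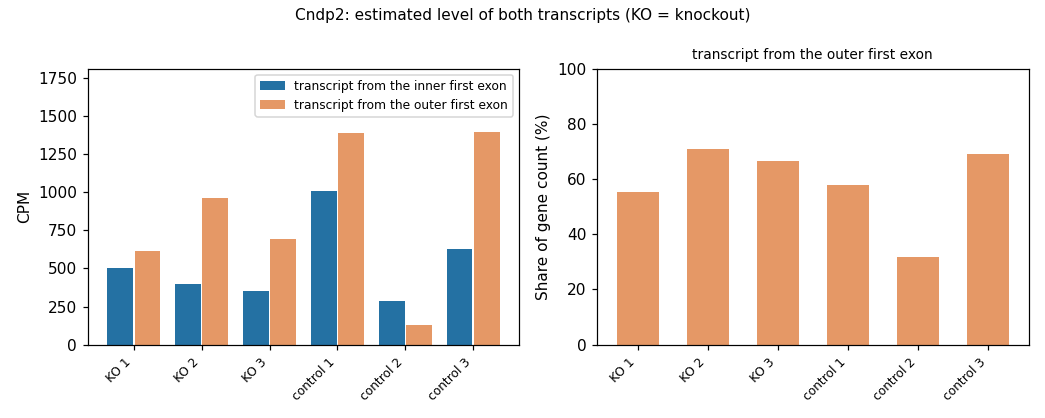
Left, estimated CPM of both Cndp2 transcripts (y axis) in each library (x axis, KO = labelled knockout); right, the share of the gene's count given to the transcript from the outer first exon (%). Control 2 holds 132 CPM of that transcript and a share of 31.6%, the lowest of the 6 libraries.

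Acy3 and Aspa, the aspartoacylase paralogs, differed in the same library. Acy3 (chromosome 19, 3986661 to 3990007, plus strand) encodes aminoacylase 3, which deacetylates mercapturic acids and N-acetyl aromatic amino acids. It had 1374, 1471 and 1453 CPM in knockout 1 to 3, against 1503, 654 and 1221 CPM in control 1 to 3. The groups overlapped, and control 2 was far below every other library. Its log2 fold change was 0.35 (SE 0.27) with all libraries, 0.07 without control 2 and 0.61 without control 1. Aspa (chromosome 11, 73304992 to 73329596, minus strand) encodes the enzyme that cleaves N-acetylaspartate and is mutated in Canavan disease. It had 133, 140 and 156 CPM in knockout 1 to 3, against 114, 156 and 143 CPM in control 1 to 3, a log2 fold change of 0.06 (SE 0.14). In Aspa, control 2 was level with the highest library labelled knockout.

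Glyat, which encodes the mitochondrial enzyme that conjugates glycine with acyl-CoA to form hippurate and similar products, was steady in the libraries labelled knockout. The gene (chromosome 19, 12633308 to 12653911, plus strand) had 629, 634 and 640 CPM in knockout 1 to 3, against 612, 472 and 594 CPM in control 1 to 3. The groups did not overlap, yet knockout 1 and control 1 lay close together. Its log2 fold change was 0.18 (SE 0.13) with all libraries and 0.07 without control 2.

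**Figure D5:**
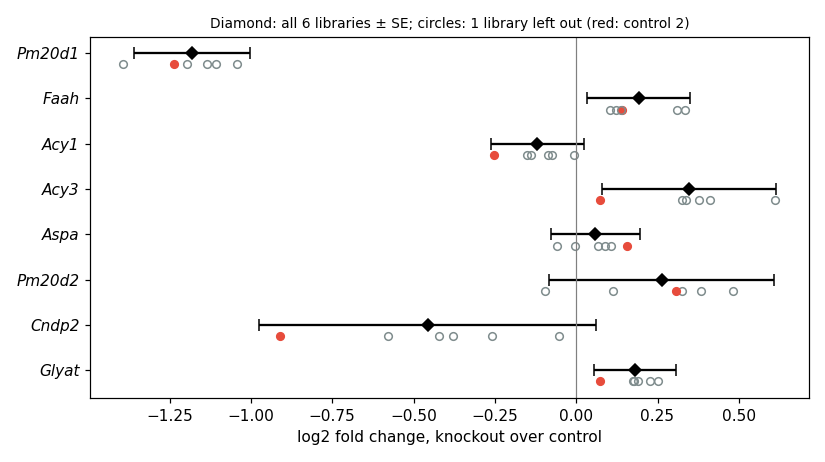
The log2 fold change, knockout over control, of each member (x axis) from all 6 libraries ± SE (diamonds) and with 1 library left out (circles, red without control 2). Pm20d1 stays between -1.39 and -1.04, Cndp2 moves to -0.91 and Acy3 to 0.07 without control 2.

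Over the 8 members, 5 log2 fold changes were above 0 and 3 below, with a median of 0.12 against -0.005 over all 15017 genes. By the edgeR test 0 of the 8 passed an adjusted p of 0.05, where 0.0133% of all genes did, 0.00666% in each direction. Pm20d1 passed in 2 of 14 alternative settings, DESeq2 and no filter on low counts, and the other members in 0. These calls are no test of Pm20d1, which was chosen by this contrast. The groups did not overlap for 2 members, Pm20d1 (lower) and Glyat (higher). Of all genes tested, 4.08% lay apart as lower and 4.1% as higher. Nothing is read from any of these counts because the contrast chose the list. Control 2 was the lowest library for 4 of the 8 members, Acy1, Acy3, Cndp2 and Glyat.

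The members lay at very different levels per length. Acy3 led with a mean of 845 FPKM over the 6 libraries, rank 44 of 24101 genes above 0, followed by Cndp2 at 663 FPKM. Glyat was at 290 FPKM, Acy1 at 163 FPKM, Aspa at 111 FPKM, Pm20d1 at 51.8 FPKM, Faah at 22.6 FPKM and Pm20d2 at 1.62 FPKM. The ranges of neighbours in this order overlapped for Acy3 and Cndp2, Cndp2 and Glyat, and Pm20d1 and Faah, so those orders do not go beyond the spread of the libraries. Pm20d1 had 36.5, 30.0 and 24.4 FPKM in knockout 1 to 3, against 69.8, 71.8 and 78.5 FPKM in control 1 to 3. Only knockout 3 therefore had more Faah than Pm20d1 per length, with 30.4 FPKM of Faah.

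Other hydrolases of N-acyl amino acids, amides and related substrates showed no called gene. Of 22 listed, 21 were tested, with 10 above 0, 11 below and a median log2 fold change of -0.04. In the edgeR test 0 passed an adjusted p of 0.05, 0 had an unadjusted p under 0.05, and DESeq2 called 0. Pter, whose product hydrolyses N-acetyltaurine in mice, was at 664 ± 51.3 CPM in libraries labelled knockout and 647 ± 23.3 CPM in controls (SD, n = 3 each). Apeh, which removes N-acetylated residues from peptides, was at 0.07 (SE 0.16) and Upb1, the beta-ureidopropionase of pyrimidine breakdown, at -0.12 (SE 0.11). The groups did not overlap for 2 of the 21, where 8.18% of all genes tested showed that: Btd, which encodes biotinidase (0.19, SE 0.10), and Napepld, which releases N-acylethanolamines from phospholipids (-0.28, SE 0.16).

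Amino acid N-acyltransferases, the enzymes of the opposite reaction, were listed together with related acyltransferases. Of 18 listed genes 14 were tested, with 5 above 0, 9 below and a median of -0.06. In the edgeR test 0 passed an adjusted p of 0.05, and DESeq2 called 0. In edgeR 1 of the 14 had an unadjusted p under 0.05, where 485 of all 15017 genes tested did. It was Nat2, an arylamine acetyltransferase gene and thus one of the related enzymes (0.34, SE 0.12). Keg1, a gene similar to Glyat and the most abundant of them, had 2181, 2611 and 2726 CPM in knockout 1 to 3, against 2288, 1272 and 3085 CPM in control 1 to 3. Nat8 and Nat8f1, of a family whose members acetylate cysteine conjugates, were at -0.05 (SE 0.21) and -0.24 (SE 0.19), and reads could be divided among such similar genes. Of 5 Acsm genes, whose products activate acids for conjugation, 4 were tested, and 0 passed in edgeR, 0 had an unadjusted p under 0.05 and DESeq2 called 0. Acsm2 was at 0.06 (SE 0.44), Acsm3 at 0.62 (SE 0.66) and Acsm1 at -0.04 (SE 0.19). Without control 2, which had 134 CPM of Acsm3 where the others had 957 to 1620 CPM, Acsm3 was at 0.12 and Acsm2 at -0.31. Keg1 was at 0.18 (SE 0.29) with all libraries and -0.10 without control 2.

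Uncoupling and adenine nucleotide carriers of mitochondria also held no called gene. Of 8 listed, 6 were tested, with a median of 0.08, and 0 passed in edgeR, 0 had an unadjusted p under 0.05 and DESeq2 called 0. The adenine nucleotide translocases Slc25a5 and Slc25a4 were at -0.04 (SE 0.11) and 0.16 (SE 0.10), and Ucp2 at 0.42 (SE 0.23). Ucp1, the uncoupling protein of brown fat, a tissue known for Pm20d1, had 4, 0 and 11 counts in knockout 1 to 3, against 70, 0 and 0 in control 1 to 3. Adipoq, an adipocyte gene, had 0.378 to 2.26 CPM in libraries labelled knockout and 0.203 to 4.37 CPM in controls. The 6 adipocyte markers summed to 46.4 to 64.4 CPM in libraries labelled knockout and 48.3 to 83.3 CPM in controls. Most of each sum was Fabp4, at 45.5 to 58.0 CPM in libraries labelled knockout and 47.8 to 68.9 CPM in controls. All 4 tested adipocyte markers stood below 0, with a median log2 fold change of -0.36. The part of fat cells in the Pm20d1 difference was not tested.

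Control 2, low for Acy1, Cndp2, Acy3 and Glyat, was also low for several genes of other lists. It was the lowest library for 3 of the 4 tested Acsm genes, which summed to 7085, 9162 and 4824 CPM in knockout 1 to 3, against 8566, 2623 and 7894 CPM in control 1 to 3. It was lowest for 4 of 7 late straight proximal tubule markers and for 2 of 8 early ones, where it was lowest for 22.8% of all genes. The 7 markers of the late straight proximal tubule summed to 4210, 6329 and 5196 CPM in knockout 1 to 3, against 4970, 3545 and 4930 CPM in control 1 to 3. The 12 androgen-responsive kidney genes other than Kap summed to 9725, 12896 and 11668 CPM in knockout 1 to 3, against 12027, 5407 and 10963 CPM in control 1 to 3. Control 2 was the lowest library for 9 of these 12, which include Slc7a13 of the late straight markers. The rest were highest among controls in control 2, so the sums join genes that went opposite ways there. Slc7a12 had 65.3 CPM in control 2, against 2.25 and 2.98 CPM in control 1 and 3. Cyp2d9 had 345 CPM, against 227 and 218 CPM, and Prlr 94.7 CPM, against 22.2 and 15.4 CPM. Slc7a12 and Cyp2d9 were also above every library labelled knockout, while Prlr was level with knockout 1. Odc1, which encodes ornithine decarboxylase, was at 299 CPM in control 2, and the cytochrome P450 genes Cyp4b1 and Cyp2e1 were at 2159 and 1231 CPM. Their part in the member values was not tested. Kap, the androgen-regulated kidney protein gene, was the 1 called gene of the 13 androgen-responsive genes. It had 0 counts in every library labelled knockout, against 16435, 8727 and 16609 CPM in control 1 to 3. The Pm20d1 level of control 2, at 318 CPM, stayed with the other controls.

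Over 12 lists of cell type markers, the median log2 fold change of a list lay between -0.38 (fibroblast and pericyte) and 0.31 (macrophage). All 7 macrophage markers stood above 0, as did all 7 of the late straight proximal tubule, while all 4 tested adipocyte markers stood below. The macrophage marker sums were 185, 155 and 136.2 CPM in knockout 1 to 3, against 121, 130 and 136.0 CPM in control 1 to 3. These sums did not overlap, though knockout 3 and control 3 nearly met. Of 6 fibroblast and pericyte markers 5 stood below 0, with sums of 110 to 156 CPM in libraries labelled knockout and 137 to 175 CPM in controls, which overlapped. The 8 early proximal tubule markers had a median log2 fold change of -0.09 and the 7 late ones 0.24. Over the 12 lists, the groups did not overlap for 8 of 65 tested markers, where 8.18% of all genes tested showed that. These were Lrp2, Umod, Cldn16, Ptger3, Slc4a1, Col1a1, Dcn and C1qa. No marker of the macrophage, fibroblast and proximal tubule lists passed an adjusted p of 0.05 in edgeR or DESeq2. In edgeR 3 of the 6 fibroblast and pericyte markers had an unadjusted p under 0.05, where 485 of all 15017 genes tested did. The part of these cell types in the Pm20d1 difference was not tested.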

How the data were processed

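RNA of 6 mouse kidney libraries was analysed from 1 table. The authors deposited estimated counts per Ensembl transcript, without normalization, and FPKM for the same transcripts. Per the submitters' processing notes, the tools included HISAT2 2.0.1, Cuffdiff 2.2.1, cutadapt 1.9.1, FastQC 0.10.1 and bcl2fastq 2.17.1.14, with GRCm38 as the build. Their roles are not stated, and the sources used here name neither the counting program nor the library kit or its strandedness. FPKM matched the spliced length of the main Pm20d1 transcripts in GENCODE M21, but not that of the Cndp2 transcripts. A deposited column named length (other values, introns included) was not used.

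Counts were summed per gene symbol and rounded. Groups were compared two-sided with edgeR 4.0.16 (R 4.3.3; quasi-likelihood, group alone, TMM, expression filter at a minimum count of 10), and p-values of all 15017 genes were adjusted by Benjamini-Hochberg. SE is the fold change over the square root of F. Simulated counts for these genes gave back 87 of 100 genes changed by 2 on the log2 scale and 59 of 100 changed by 1, with 4 false calls. The simulation planted 100 changed genes of each size, where 2 genes were called in the real libraries, so these rates may not hold for them. Groups and replicate numbers come from sample titles. Alternatives were other scalings, no filter, DESeq2 1.42.0, limma 3.58.1 on log2(FPKM + 1) and log2(FPKM + 0.1), sums per gene ID, the replicate number as a block and each library left out. The members, lists and tests were chosen with earlier results of these data known. Named genes were the members, up to 3 most abundant genes per pathway list and any called, tested genes within 500 kb of Pm20d1 (by lower coordinate) and the 5 most like it. Genes named because their groups did not overlap, Nat2, Cndp1, Ucp1 and Adipoq were chosen after their values were seen. So were Slc7a12, Cyp2d9, Prlr, the transcripts described and the minimum mean count of 10 per transcript.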

Additional observations from a re-analysis of the deposited data

How the results depend on the processing

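The Pm20d1 log2 fold change lay between -1.29 and -1.17 in the 8 other settings and between -1.39 and -1.04 without 1 library. The sign turned for Pm20d2 without knockout 3 (-0.10) and for Aspa without control 1 (-0.06) or knockout 3 (-0.01). The difference in the short Pm20d1 transcript's share was -4.93 percentage points, from -6.71 to -3.35 without 1 library and -7.77 from FPKM, which divides by the transcript's length.

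Genes called higher numbered 1, but 13 with DESeq2, 3 without the filter on low counts and 0 with library totals, limma on log2(FPKM + 1) or limma on log2(FPKM + 0.1), and 0 to 2 without 1 library. Genes called lower numbered 1, 2 with DESeq2 or without the filter, and 1 to 4 without 1 library. The 2 were Kap and Pm20d1 in each, and Pm20d1 was chosen by this contrast. Pathway list genes called numbered 1 in every setting. The labels do not say whether replicate numbers pair the libraries. Deviations of same-numbered libraries correlated at 0.09, -0.09 and 0.12, and those of other pairs at -0.17 to 0.08. With 3 libraries per group these values cannot settle it. With the replicate number as a block, the Pm20d1 log2 fold change was -1.21 and 1 gene was called in each direction. Apart from the share from FPKM, the cause of these changes was not tested. Pm20d2, at 27 to 78 counts, is the member that depth limits most.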
